A study of Arabidopsis thaliana and Zea mays subsp. mays with 14 samples.

Results

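The regions described here are stretches of open chromatin in the gene-poor sequence around the 5 centromeres of Arabidopsis thaliana. Regions from 10 ATAC-seq lists were merged wherever they touched or overlapped, which gave 29359 merged regions. A merged region was a member if its midpoint lay in 1 of 5 windows, chromosome 1 from 12 to 17 Mb, chromosome 2 from 2 to 6 Mb, chromosome 3 from 11 to 16 Mb, chromosome 4 from 2 to 6 Mb and chromosome 5 from 10 to 15 Mb, and outside annotated pseudogenes. The annotation used has no class of transposable element genes, and its pseudogene classes were taken to hold them. This gave 2168 members, or 7.38% of all merged regions, against 26844 regions outside pseudogenes on the chromosome arms. The other 347 merged regions were centred on pseudogenes, 155 of them inside the windows. The windows fitted their name by annotation: pseudogenes took up 32.7% of their 23 Mb against 3.05% of the 96.1 Mb of arms. Per Mb of sequence outside pseudogenes they held 116 protein-coding genes, against 275 on the arms. Per Mb of all sequence the values were 78.0 and 267.

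In ATAC-seq the transposase Tn5 inserts sequencing adapters where DNA is not wrapped tightly, so called regions mark accessible DNA such as promoters and enhancers. Pericentromeric DNA in plants is packed as heterochromatin, which is rich in transposons, methylated DNA and histone H3 methylated at lysine 9, and which holds few active genes. The satellite repeats of the centromeres themselves are largely missing from the reference sequence. Genes embedded in such surroundings can nevertheless be transcribed, and their promoters are then open islands between silent repeats.

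The 10 libraries formed 5 groups of 2, all from 7-day-old plants of the accession Col-0. The reference group, called sorted seedling here, held 50000 sorted nuclei from whole wild-type seedlings. The other wild-type groups were 500 sorted nuclei from whole seedlings, 50000 sorted nuclei from roots, and 50000 whole-seedling nuclei labelled as crude. The last group held 50000 nuclei from whole seedlings of a 35S:H2AX-GFP transgenic line, in which a viral promoter drives a fluorescent histone variant; the labels do not say whether it is 1 transformed line or several. The lists counted 22138 to 29309 regions and gave positions and scores without counts of reads, so depth is unknown. Nothing in the labels shows that replicates were grown separately, and the p-values below therefore reflect how much these 10 libraries vary, possibly for technical reasons alone.

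One library stood apart in the windows. H2AX-GFP replicate 2 called 1989 of the 2168 members, or 91.7%, while the other 9 libraries called between 802 and 1271. On the arms the same library was within the range of the others, with 71.5% of arm regions called against 56.7% to 86.6%. Results that rest on it are therefore given with and without it. Crude replicate 1 was the library with the fewest members, 802, or 37.0%.

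Open regions were less frequent per Mb in the windows than on the arms in all 10 libraries. Sorted seedling libraries held 116 and 102 regions per Mb of window sequence outside pseudogenes, against 275 and 231 on the arms. The 500-nuclei libraries held 106 and 104 against 261 and 219.6. The root libraries held 93.7 and 104 against 231 and 218. These 3 groups lay close together, with a window density of 0.405 to 0.478 times the arm density in each of their libraries. The crude libraries were lower, at 77.6 and 103 per Mb against 239 and 270.0, ratios of 0.325 and 0.382. H2AX-GFP replicate 1 held 119 against 292, a ratio of 0.409, and replicate 2 held 133 against 241, a ratio of 0.553, the highest of the 10. The mean was 106 regions per Mb in the windows and 248 on the arms. The log2 ratio averaged -1.23 ± 0.21 (SD, n = 10; exact two-sided sign-flip test over libraries, p = 0.00195, the smallest that 10 libraries allow; p = 0.00391 adjusted over 8 measures). Without H2AX-GFP replicate 2 it averaged -1.27, lower on the windows in all 9 libraries (exact p = 0.00391).

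Counted per protein-coding gene, no difference between windows and arms was detected. The windows held 0.913 ± 0.129 regions per gene and the arms 0.901 ± 0.0915 (SD, n = 10), with 5 libraries higher and 5 lower in the windows (exact sign-flip test, p = 0.859). The extremes were crude replicate 1, at 0.669 against 0.869, and H2AX-GFP replicate 2, at 1.15 against 0.877. The mean log2 ratio was 0.01 ± 0.21 (SD, n = 10), and it changed sign under several settings, so no direction is given.

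**Figure D1:**
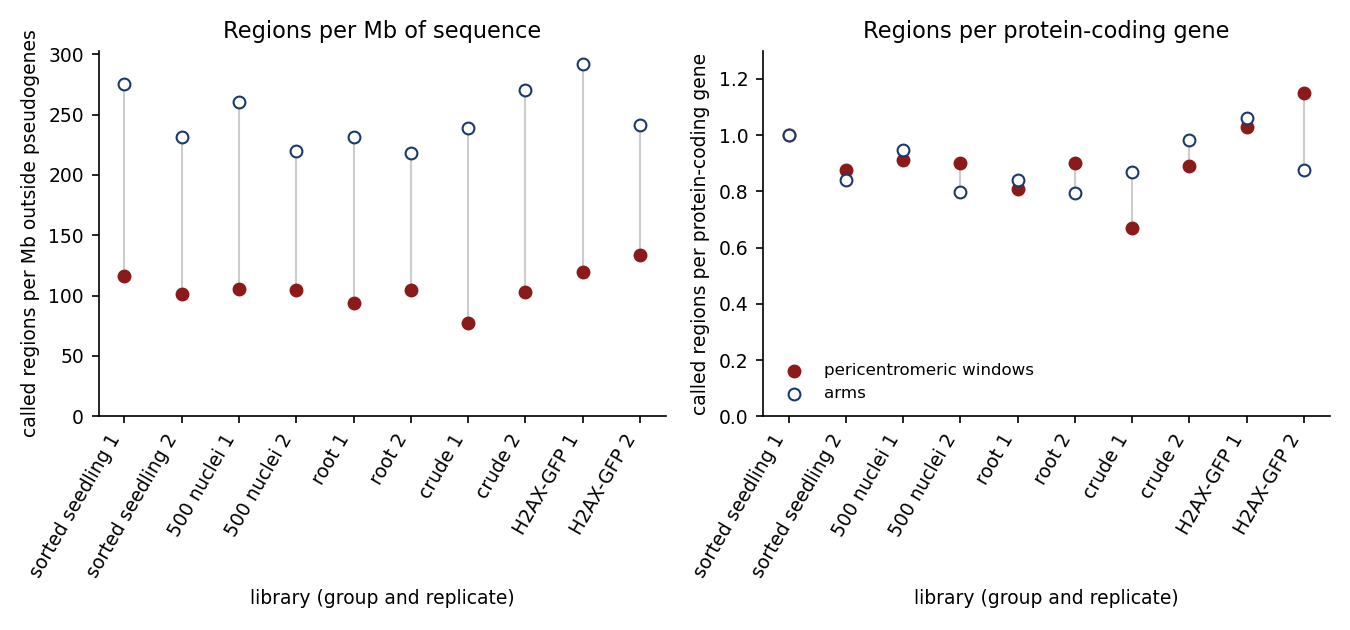
Called regions per Mb of sequence outside pseudogenes (left) and per protein-coding gene (right) for each of the 10 libraries, with filled points for the pericentromeric windows and open points for the arms. Per Mb every library has fewer regions in the windows, between 77.6 and 133 against 218 to 292, while per gene the filled and open points change places from library to library.

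The density fell from the arms into the windows. Merged over all libraries, regions numbered 282 per Mb between 1 and 2 Mb outside the windows and 261 in the first Mb outside. Inside the windows they numbered 195 per Mb in the outer Mb at each edge, 94.7 in the next Mb and 65.7 between 2 and 3 Mb from the edge. The protein-coding genes followed the same course, from 231 per Mb in the first Mb outside to 162, 83.3 and 38.4 inside. In the innermost bin the 9 other libraries held 20.3 to 44.3 regions per Mb and H2AX-GFP replicate 2 held 63.5, while in each bin outside the windows it lay within the range of the others. Each of the 23 steps of 1 Mb that make up the windows had fewer members per Mb than the arms, which held 288. The steps ranged from 35.7 members per Mb, on chromosome 1 between 14 and 15 Mb, to 235 on the same chromosome between 12 and 13 Mb. Across the 23 steps the density of members and the density of genes had a Pearson r of 0.83, a description over neighbouring steps that share libraries and annotation.

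**Figure D2:**
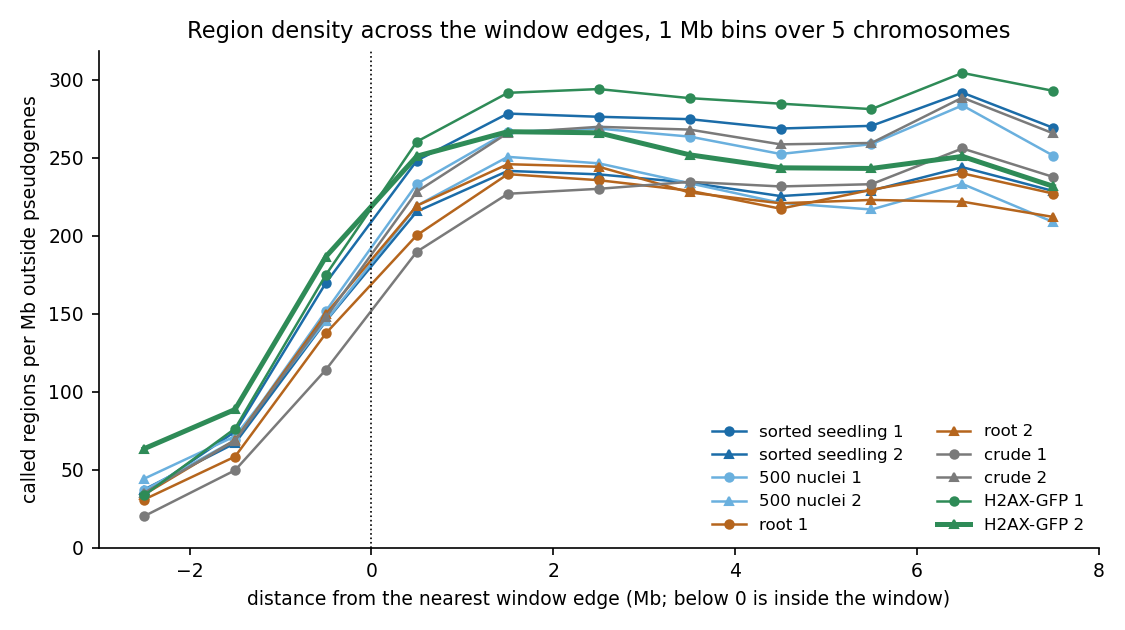
Called regions per Mb outside pseudogenes against the distance from the nearest window edge in 1 Mb bins, pooled over both edges of 5 windows, with a line for each library, circles for replicate 1 and triangles for replicate 2. Inside the windows (below 0) the lines fall to between 20.3 and 63.5 regions per Mb, with H2AX-GFP replicate 2 (thick green line) on top.

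All 5 windows had this deficit. The merged density was lowest relative to the arms on chromosome 2, with 121 members per Mb against 294 (ratio 0.411), and highest on chromosome 5, with 156 against 293 (ratio 0.533). Chromosomes 1, 3 and 4 had ratios of 0.501, 0.464 and 0.505. In each window the ratio was below 1 in 10 of 10 libraries, with values from 0.269 (chromosome 3) to 0.602 (chromosome 5) over all libraries. Members per gene ranged from 0.9 on chromosome 2 to 1.37 on chromosome 5. On chromosome 2 the 1 Mb steps from 2 Mb on held 110, 50, 49 and 97 members. They held 82, 121, 58 and 79 genes in the same order. The step from 3 to 4 Mb includes the mitochondrial copy described below.

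The deficit was not spread evenly over the sequence. Inside protein-coding gene spans the windows were denser in open regions than the arms, with 206 ± 27.1 against 149 ± 18.3 regions per Mb of gene sequence (SD, n = 10). The ratio was above 1 in all 10 libraries, from 1.03 in crude replicate 1 to 1.68 in root replicate 2 (exact sign-flip test, p = 0.00195). Within 1000 bp of a gene, where promoters lie, the order was the opposite, with 187 ± 35.1 regions per Mb in the windows against 517 ± 80.7 on the arms (ratio 0.275 to 0.424). Farther from genes the windows held 48.4 ± 12.4 against 277 ± 40.4, a ratio of 0.114 to 0.192 in 9 libraries and 0.291 in H2AX-GFP replicate 2. Both deficits were seen in 10 of 10 libraries (exact p = 0.00195 each; p = 0.00391 for each of the 3 classes without H2AX-GFP replicate 2). Genes in the windows were shorter, with a median span of 1628 bp against 2099 bp, and the part this plays in the location of midpoints was not tested.

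As shares of a library's own regions, 44.9% ± 5.34 of window regions were centred inside a gene against 39.3% ± 4.87 of arm regions, 27.3% ± 4.09 against 47.3% ± 4.25 lay within 1000 bp of a gene, and 27.8% ± 3.47 against 13.4% ± 0.748 lay farther away (SD, n = 10; exact sign-flip test, p = 0.00195 each, the same direction in 10 of 10 libraries). These shares are set against very different amounts of sequence: gene spans make up 22.9% of the window sequence outside pseudogenes and 65.2% of the arm sequence, and sequence over 1000 bp from a gene makes up 61.7% and 12.1%.

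**Figure D3:**
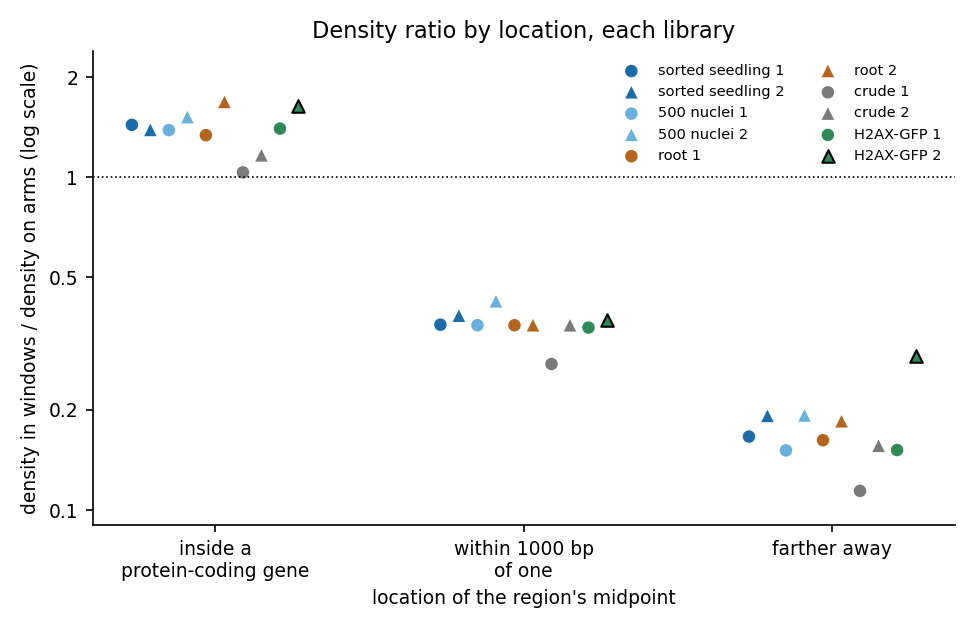
Ratio of the density of called regions in the windows to that on the arms, on a log axis, for regions centred inside a protein-coding gene, within 1000 bp of one, or farther away, with a point for each library (circles replicate 1, triangles replicate 2). All 10 points lie above 1 inside genes and below 1 in both other classes, and H2AX-GFP replicate 2 (black outline) is the highest point in the class farthest from genes, at 0.291.

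Ends of genes were covered less often in the windows than on the arms. An end of a protein-coding gene, start or stop, lay in a called region for 31.5% ± 7.74 of gene ends in the windows and 40.7% ± 6.34 on the arms (SD, n = 10; lower in 9 of 10 libraries, exact sign-flip test, p = 0.00781). The exception was H2AX-GFP replicate 2, with 48.4% against 42.5%; without it the means were 29.6% and 40.6% (exact p = 0.00391). Among the better-scoring 50% of regions the difference of -9.24 percentage points became -4.13 and did not pass 0.05 (exact p = 0.0801). Over all libraries together, 748 of 1795 window genes (41.7%) had neither end covered in any library, against 5568 of 25637 arm genes (21.7%). An end was covered in all 10 libraries for 477 window genes (26.6%), against 38.8% of arm genes. The window steps differed in this. In sorted seedling replicate 1, 6.2% of the ends of the 121 genes on chromosome 2 between 3 and 4 Mb were covered. Every other step had 18.3% to 47.9%. That step includes the mitochondrial copy described below, and its part in the lower share was not tested.

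Regions in the windows were somewhat wider as called. Their median width was 643 ± 143 bp against 557 ± 93.9 bp on the arms (SD, n = 10; wider in 9 of 10 libraries, exact sign-flip test, p = 0.0137). Crude replicate 1 was the exception, at 420.0 against 455 bp, and H2AX-GFP replicate 2 had the widest, at 915 against 607 bp. Without the latter the medians averaged 613 and 552 bp (exact p = 0.0273). The summed widths of H2AX-GFP replicate 2 regions centred outside pseudogenes came to 20.6% of window sequence outside pseudogenes and 21.9% on the arms. In the other libraries they came to 4.53% to 10.7% in the windows and 13.3% to 24.5% on the arms. Bases of such regions that run into a pseudogene are counted. The authors' score ranked window regions at a median percentile of 51.9 ± 4.77 within their library and arm regions at 49.8 ± 0.341 (SD, n = 10; higher in 7 of 10 libraries, exact p = 0.223), a difference within the spread between libraries.

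Members were shared by fewer libraries than arm regions were. A region counted as called in a library if the library covered at least 1 base of it. Of the members, 673 (31.0%) were called in all 10 libraries, against 43.3% of arm regions, and 627 (28.9%) were called in 1 library, against 12.9%. The mean was 5.57 libraries per member and 7.01 per arm region. Where a library had to cover at least 50% of a region, shares were taken over the regions that at least 1 library covered to that extent. They were 2.49% of members against 10.9% of arm regions for all 10 libraries, and 45.1% against 18.3% for 1. The merged widths include H2AX-GFP replicate 2, and the 50% rule was not run without it. H2AX-GFP replicate 2 alone accounted for 518 of the 627 members called in 1 library, or 82.6%, against 727 of 3470 such arm regions, or 21.0%. Its 518 single members were narrow and low in its own ranking, with a median width of 320.0 bp and a median score percentile of 14.2. They lay in all 5 windows, 80 to 128 in each, and 65.9% of its 727 single arm regions lay within 2 Mb of a window.

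Without that library the shares differed from the arms in the same direction. Merging the other 9 lists gave 2109 members, of which 743 (35.2%) were called in all 9 and 412 (19.5%) in 1, against 44.1% and 12.3% of 26933 arm regions. The largest share of those 412 came from H2AX-GFP replicate 1 (88) and root replicate 2 (76), and the smallest from 500-nuclei replicate 1 (6). On each chromosome the share called in 1 of these 9 libraries was higher in the window, from 18.3% on chromosome 3 to 21.2% on chromosome 5, against 10.97% to 13.995% on the arms. The shares describe these lists and carry no test, since neighbouring regions are not independent.

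**Figure D4:**
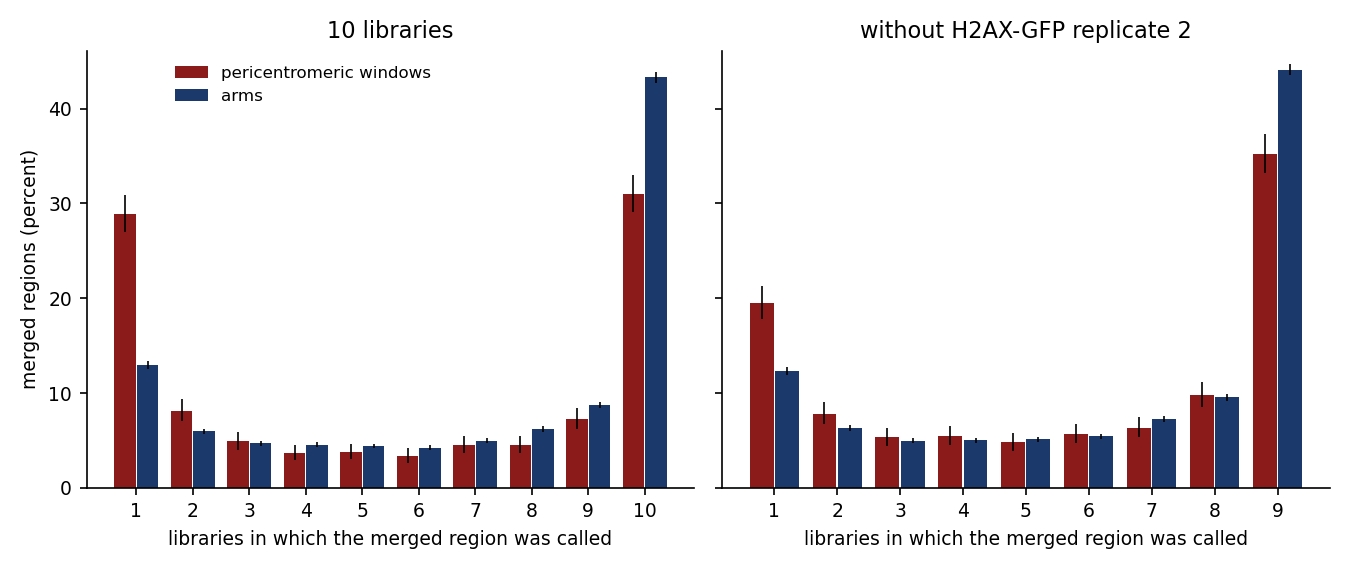
Percent of merged regions called in 1, 2 and up to all libraries, for the pericentromeric windows and the arms, over all 10 libraries (left) and without H2AX-GFP replicate 2 (right). Bars are percent of regions and error bars 95% exact binomial intervals that cover counting error alone. In the windows 28.9% were called in 1 library, and 19.5% once that library was left out, against 12.9% and 12.3% on the arms.

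Members called in all 10 libraries differed from the others in width, rank and location. A merged width is a union over libraries and so can grow with their number. It had a median of 2675 bp, for members in all 10, against 831 bp for members in 2 to 9 libraries and 310.0 bp for those in 1. The same classes on the arms had medians of 1343, 607 and 262 bp. Over all members and all arm regions the median merged widths were 912 and 790 bp, and 769 and 772 bp without H2AX-GFP replicate 2. The widths by number of libraries, here and below, all include that library. Of the 673 members in all libraries, 292 (43.4%) were at least 3000 bp wide, against 15.2% of such arm regions. Their median score percentile, averaged over libraries, was 79.1, against 68.8 on the arms. Of these members, 59.0% were centred inside a gene and 20.4% were over 1000 bp away, whereas 43.5% of members in 1 library were over 1000 bp away.

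Replicates of a group agreed about as well in the windows as on the arms in 3 groups and less well in 2. Of the merged regions called in either replicate, both called 78.0% in the windows and 80.1% on the arms for sorted seedlings, 78.2% and 76.6% for 500 nuclei, and 82.7% and 78.4% for roots. The shares were 63.6% and 73.0% for crude nuclei and 62.2% and 74.3% for H2AX-GFP. Over the 5 groups the difference averaged -3.55 percentage points (exact sign-flip test, p = 0.375; 5 groups cannot go below 0.0625).

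No group was separated from the sorted seedlings by its ratio of window to arm density in the tests made. Root libraries had a ratio of 0.441 ± 0.0517 (SD, n = 2) and the 8 seedling libraries 0.426 ± 0.0673 (SD, n = 8), which an exact two-sided permutation test over 45 divisions did not separate (p = 0.8). Sorted seedlings were at 0.431 ± 0.0122, 500 nuclei at 0.44 ± 0.0496, H2AX-GFP at 0.481 ± 0.102 and crude nuclei at 0.354 ± 0.0405 (SD, n = 2 each). Both crude libraries lay below both sorted seedling libraries (exact permutation p = 0.333, the smallest that 2 against 2 allows; p = 1 adjusted over 5 comparisons). These comparisons share the sorted seedling libraries.

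By the authors' score, the highest members of all 5 windows lay at the ribosomal RNA unit of chromosome 3. In the chromosome 3 window the 3 top members called in all 10 libraries were chr3:14200736-14203135, chr3:14198681-14200234 and chr3:14196902-14198426 (TAIR10), with mean score percentiles of 99.99, 99.99 and 99.98 over libraries. The second touches the ribosomal RNA genes AT3G41768 and AT3G41979, which encode structural RNAs of the ribosome, the third touches AT3G41768, and the first touches the non-coding RNA gene AT3G06365, as does the second. Such genes exist in many near-identical copies, so reads from copies elsewhere cannot be told apart from reads of this unit, and the labels do not describe how such reads were placed. Their covered length in the 10 libraries ran from 1482 to 2110 bp for the first, 913 to 1523 bp for the second and 722 to 1254 bp for the third, with root and seedling values overlapping.

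On chromosome 1 the top members were chr1:15081843-15086045 over AT1G40104, chr1:12549659-12554977 over STOP1, which encodes a zinc finger factor for tolerance of acid soil and aluminium, and chr1:12471924-12475270 over EPF2, which encodes a secreted peptide that limits stomatal number. Their mean score percentiles were 99.9, 99.7 and 98.6. The AT1G40104 member was almost the same length in every library, between 3808 and 4203 bp. The STOP1 member varied, from 1536 and 1808 bp in crude nuclei through 4133 and 3409 bp in roots to 4939 bp in H2AX-GFP replicate 2. The EPF2 member covered 3217 and 2747 bp in sorted seedlings and 2891 and 2089 bp in roots.

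The top members of chromosome 2 were chr2:3500608-3502188 at AT2G07665, chr2:3625126-3626402 in AT2G08986 and chr2:5048447-5054264 over AT2G12461 and AT2G12462. Their covered lengths over the 10 libraries were 702 to 1332 bp, 628 to 962 bp and 3104 to 5818 bp.

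On chromosome 4 they were chr4:5757353-5760945 over FBW2, an F-box gene that acts on the small RNA pathway, chr4:3950397-3956020, centred outside but touching the pseudogene AT4G06700, and chr4:2715484-2721444 over the polyubiquitin gene UBQ10. UBQ10 is often used as an evenly expressed reference, and its member spanned 3762 to 5576 bp over the 10 libraries. The member at AT4G06700 lay 25959 bp from the nearest protein-coding gene and was 5526 to 5618 bp long in every library. On chromosome 5 the top members were chr5:14910753-14915389 over AT5G37540, chr5:11726025-11737369 and chr5:10377094-10377921 at AT5G28460. The second of these was 11345 bp wide and covered 9964 to 11212 bp in every library. It lay 89386 bp from the nearest protein-coding gene and 1907 bp from the nearest annotated feature, a pseudogene. For all members named by score, the placement of reads from any repeated sequence is not described. The genomic DNA samples had no region list to compare them with.

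Of the 5 widest members, 3 touched more than 1 protein-coding gene. The widest, chr4:2021957-2036664, was 14708 bp and held 5 protein-coding genes, among them PUX4 and RLP46. Single libraries covered 5425 to 14435 bp of it, the most in H2AX-GFP replicate 2. The member over NIA2, which encodes the major nitrate reductase, was 11388 bp (chr1:14155841-14167228), of which 8054 and 10130 bp were covered in sorted seedlings, 9641 and 6204 bp in roots and 4394 and 7498 bp in crude nuclei. In chr2:5921593-5934024 and chr5:13664634-13676126 H2AX-GFP replicate 2 covered the whole width, 12432 and 11493 bp, while the other libraries covered 1758 to 6524 bp and 1475 to 4743 bp.

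Open regions far from any protein-coding gene were found almost entirely in the windows. There were 221 members, or 10.2%, over 10 kb from the nearest protein-coding gene, and 12 such arm regions, or 0.0447%. The windows offer far more such sequence, so the counts describe where these regions lie and not how dense they are. Of the 221, 34 were called in all 10 libraries and 70 in 1, of which 56 were in H2AX-GFP replicate 2 alone. Single libraries called between 49 (crude replicate 1) and 129 (500-nuclei replicate 2), and H2AX-GFP replicate 2 called 197. The 34 in all libraries had a median width of 1404 bp and a median score percentile of 77.0. Chromosome 5 held 76 of the 221, and 25 touched any annotated gene.

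The members farthest from a protein-coding gene among those called in at least 8 libraries all lay on chromosome 5. The farthest was chr5:11796214-11796820, 159575 bp away. It covered 433 bp in sorted seedling replicate 2 and 0 in replicate 1, 376 and 548 bp with 500 nuclei, 121 and 197 bp in roots, 14 and 261 bp in crude nuclei and 99 and 607 bp in H2AX-GFP. The next 4 were 115713 to 120377 bp away. Their score percentiles, averaged over libraries, were 42.6 to 54.4 for all 5, near the middle of the lists.

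Part of chromosome 2 carries a copy of mitochondrial DNA, where reads of the nuclear copy and of the organelle largely cannot be told apart. Between 3.2 and 3.5 Mb there were 19 members, and none between 3.3 and 3.4 Mb. The 9 members between 3.2 and 3.3 Mb differed between libraries. The 500-nuclei libraries called 6 and 5 of them and crude replicate 1 called 7, while crude replicate 2 and both libraries of sorted seedling and root called 1 each, and the H2AX-GFP libraries 0 and 1. An example is chr2:3254948-3255198 in AT2G07779, 251 bp, which both 500-nuclei libraries and crude replicate 1 covered whole and the 7 others not at all. The 10 members between 3.4 and 3.5 Mb showed no such pattern, with 5 to 9 called per library and 5 of 19 members in all 10 libraries, all 5 in this stretch. The part of organelle DNA in these calls was not tested.

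Well-studied genes in the windows mostly had an open region. Of 65 genes in 6 lists, 63 had a member within 1000 bp, and 54 had a member called in all 10 libraries. The exceptions were PGLP1, of photorespiration, and the calcium-dependent kinase gene CPK4, which the annotation places just past the end of the chromosome 4 window. The housekeeping list had such a constant member at 11 of 13 genes, among them UBQ10, UBQ11 and the calmodulin gene CAM7. The list for photosynthesis and chloroplast metabolism had one at 9 of 11, that for nitrogen and amino acid metabolism at 7 of 8 and that for light and hormone signalling at 8 of 8, with the photoreceptor genes CRY1 and PHYC among them. The list for stress, transport and immunity had one at 9 of 11, and the list for chromatin, transcription and development at 10 of 14. In the last list TT1 and TT2, which encode regulators of flavonoid pigments in the seed coat, were covered in few libraries. TT1 had 1833 bp in H2AX-GFP replicate 2 alone. TT2 had members of 320 and 660 bp there, and root replicate 2 covered 67 bp of the second. The 110 members at list genes share genes, and 64 of them were called in all 10 libraries. These genes were picked because they are well studied, and they do not represent the 1795 genes of the windows. The share of all 1795 genes with a member within 1000 bp was not taken, so these counts have no background.

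Roots and seedlings were then compared region by region. The measure was the number of bases a library covered in each merged region, tested with limma over all 25147 merged regions covered in at least 2 libraries. Of the members, 1541 entered the test and 627 did not, because 1 library covered them. Against sorted seedlings alone, 1 member covered more bases in roots and 2 fewer (adjusted p under 0.05), where 0.159% of all tested regions were called higher and 0.382% lower. Against the mean of the 4 seedling groups, 16 members were higher and 14 lower, against 1.26% and 1.55% of all tested regions. The members called were 0.195% and 1.95% of those tested, where 0.569% and 2.87% of arm regions were called; the difference in share was not tested. Whole seedlings include roots, so the comparison is of roots with plants that contain them. The median difference was -80.1 bp over the tested members and -36.9 bp over all regions in the second comparison, and -84.0 and -70.0 bp in the first. Without H2AX-GFP replicate 2 the medians in the second were -10.6 bp over the tested members and -43.25 bp over all regions, which is the opposite order.

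**Figure D5:**
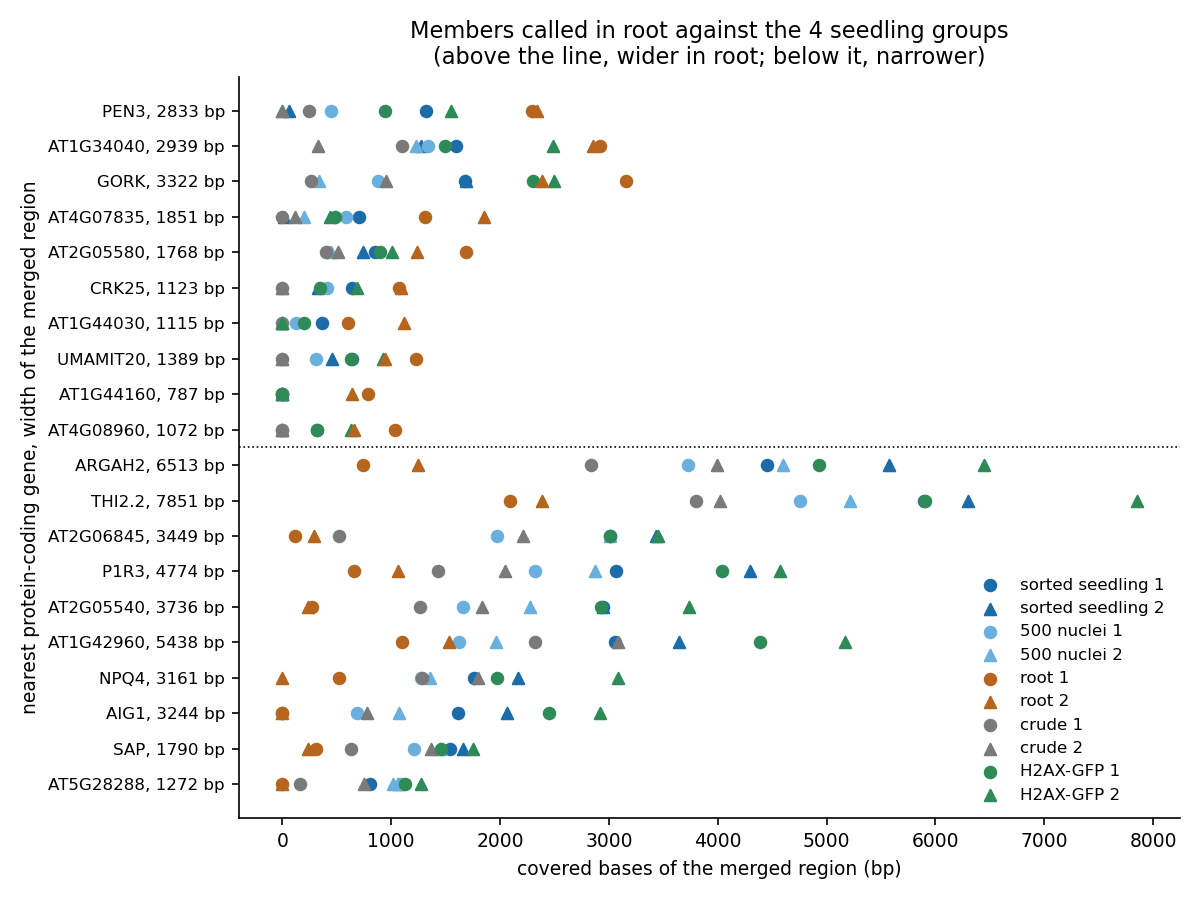
Covered bases in each library for the 20 members with the largest differences among those called in roots against all 4 seedling groups, 10 in each direction, named by the nearest protein-coding gene and the width of the merged region. Root libraries (brown) lie to the right of the others above the dotted line and to the left below it, except at GORK and AIG1, where they overlap or tie with another library.

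Among the members with fewer covered bases in roots were those at ARGAH2, THI2.2, GAPB and NPQ4. At ARGAH2, which encodes an arginase, roots covered 738 and 1244 bp and sorted seedlings 4452 and 5576 bp, and the other 6 libraries lay between 2835 and 6450 bp (root minus the 4 groups -3579 ± 577 bp, SE; limma adjusted p = 0.0238). At THI2.2, a thionin gene whose product is an antimicrobial peptide, roots covered 2089 and 2385 bp and sorted seedlings 5892 and 6297 bp (difference -3229 ± 547 bp; limma adjusted p = 0.0285). Neither pair of root values overlapped any seedling library.

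Of the photosynthesis list, 2 members were called. At GAPB, a chloroplast dehydrogenase of the Calvin cycle, the member also spans AT1G42960. Roots covered 1098 and 1533 bp there, sorted seedlings 3052 and 3640 bp, 500 nuclei 1622 and 1965 bp, crude nuclei 2319 and 3082 bp and H2AX-GFP 4392 and 5166 bp (difference -1839 ± 363 bp; limma adjusted p = 0.0443). At NPQ4, the gene of the PsbS protein that protects photosystem II from excess light, roots covered 517 and 0 bp, sorted seedlings 1757 and 2161 bp and the other 6 libraries 1273 to 3080 bp (difference -1576 ± 320.2 bp; limma adjusted p = 0.0483). In these 2 members the root values lay below all 8 seedling values, narrowly at GAPB, where 500-nuclei replicate 1 was the lowest seedling library. A second member at NPQ4, chr1:16869041-16870247, was not called (difference -396 ± 251 bp, limma adjusted p = 0.535). Roots covered 747 and 300 bp of it, within the seedling range of 184 to 1192 bp.

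A member over AT2G05540, chr2:2031803-2035538, was called in both comparisons. Roots covered 270.0 and 235 bp of it, sorted seedlings 2948 and 2946 bp, 500 nuclei 1662 and 2276 bp, crude nuclei 1264 and 1839 bp and H2AX-GFP 2926 and 3736 bp (difference from sorted seedlings -2695 ± 382 bp; limma adjusted p = 0.0387). The member chr3:11048529-11049587 at AT3G29060 was called against sorted seedlings, with 0 bp in both root libraries against 1030 and 826 bp. Crude nuclei also had 0 in both. Its result in the other comparison is not given here.

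Among the members with more covered bases in roots, 1 was covered in no seedling library. In chr1:16795983-16796769 at AT1G44160, roots covered 787 and 639 bp and the 8 seedling libraries 0 each (difference 713 ± 69.4 bp; limma adjusted p = 0.00914 against the 4 groups and 0.0325 against sorted seedlings). In the member touching PEN3 on chromosome 5 (AT5G36150, annotated as a putative triterpene synthase gene), roots covered 2296 and 2337 bp, sorted seedlings 1317 and 58 bp and the other 6 libraries 0 to 1551 bp (difference 1745 ± 319 bp; limma adjusted p = 0.0352). At GORK, the outward potassium channel of guard cells and root hairs, roots covered 3155 and 2383 bp, sorted seedlings 1678 and 1689 bp and H2AX-GFP 2300 and 2497 bp (difference 1443 ± 288 bp; limma adjusted p = 0.046). The GORK values of root and H2AX-GFP overlapped. CRK25, a receptor-like kinase gene, and UMAMIT20, of a family of amino acid transporters, were also higher, with 1073 and 1095 bp and with 1230 and 945 bp in roots, against at most 690 and 929 bp in any seedling library. A wider member at GORK, chr5:14883450-14889782, was not called (difference from the 4 groups 358.5 ± 775 bp, limma adjusted p = 0.857). It covered 4195 and 3403 bp in roots and 3973 and 3859 bp in sorted seedlings.

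In 18 of these 20 named members the root libraries did not overlap the 8 seedling libraries, as the choice by test favours. The share without overlap was not taken over all tested regions, so this count only describes the named members. The calls depended on single libraries. With each library left out in turn, the members called against the 4 groups numbered 15 and 7 without sorted seedling replicate 1 or 2, 2 and 1 without 500-nuclei replicate 1 or 2, 0 and 1 without root replicate 1 or 2, 25 and 15 without crude replicate 1 or 2, and 85 and 46 without H2AX-GFP replicate 1 or 2. Over all regions the 708 calls became 475 and 237, 142 and 134, 0 and 176, 674 and 493, and 874 and 742 in the same order. As shares of those tested, the members lay below all regions in the full fit (1.95% against 2.82%) and above them without H2AX-GFP replicate 1 (5.69% against 3.63%) or 2 (3.29% against 3.01%). The 3 members called against sorted seedlings alone became 0 without any library of sorted seedling, 500 nuclei or root, 4 and 7 without a crude library, and 8 and 10 without an H2AX-GFP library. Leaving out a root library leaves 1, which is assumed to vary like the other groups. Each of the 20 kept its direction under every setting tried and was called in 3 to 14 of up to 18. Scale changed the balance of calls in both directions. Over all regions, 40 were higher and 96 lower against sorted seedlings, which became 196 and 121 after quantile normalization, 64 and 28 after division by covered length, 113 and 625 on log2(bases + 100), and 0 and 45 on the covered share of the region. For the 4 groups, 317 and 391 became 899 and 607, 710 and 511, 293 and 885, and 31 and 297 under these settings. The members' 16 higher and 14 lower became 37 and 33, 30 and 20, 12 and 51, and 2 and 6, so no balance of directions is given for them.

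By list, 13 members at photosynthesis genes were tested, and 2 were called lower and 0 higher in roots relative to the 4 groups. Of these 13, 10 had a difference below 0 and the median was -864 bp, against -36.9 bp over all tested regions and -80.1 bp over the tested members. Against sorted seedlings the same list had 12 of 13 below 0 and a median of -1342 bp, but 0 were called by limma. This was not particular to roots. Against sorted seedlings, 500 nuclei and crude nuclei had 13 of 13 below 0, with medians of -668.5 and -754.5 bp. H2AX-GFP had 13 of 13 above 0, with a median of 567.5 bp. The tested members of this list were 624 to 9853 bp wide, against a median of 912 bp over all members, and widths were not matched. Relative to the 4 groups, the light and hormone list had 9 of 12 below 0 in roots and a median of -219.9 bp with 0 called. The chromatin and development list had 16 of 22 below 0 and a median of -118 bp, the nitrogen list 4 of 13 and 245 bp, the housekeeping list 9 of 20 and 131 bp, and the stress and transport list 6 of 14 and 89.1 bp, with GORK as its 1 call. Over all tested members, 996 of 1541 (64.6%) were below 0. These lists were chosen with earlier results known, and the 2 comparisons share the root and sorted seedling libraries.

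The other groups gave no called region in or outside the windows with limma. For 500 nuclei, crude nuclei and H2AX-GFP against sorted seedlings, 0 of 25147 regions (0%) passed the adjusted threshold. At an unadjusted p under 0.05 there were 69 members and 1548 regions in all for 500 nuclei (4.48% and 6.16% of those tested), 168 and 2061 for crude nuclei (10.9% and 8.2%), and 163 and 1104 for H2AX-GFP (10.6% and 4.39%). For crude nuclei the median difference was -297 bp over the tested members and -116 bp over all regions, with 1256 of 1541 members below 0. The members' median was -177 bp without crude replicate 1 and -405 bp without replicate 2. For H2AX-GFP the median was 277.5 bp over members and 32 bp over all regions, with 1319 members above 0, and this rested on replicate 2. Without replicate 2 the members' median was -18.5 bp, with 616 of 1399 above 0, against 91.5 bp over all regions. The 500-nuclei libraries had medians of -189.5 bp for members and -187 bp for all regions. Without H2AX-GFP replicate 1, which leaves replicate 2 alone, 207 of 1495 members (13.8%) were called higher and 0 lower, against 473 of all 24081 regions (1.96%). Without replicate 2, 0 members and 1 of all 24662 regions were called by limma.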

How the data were processed

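The authors called open regions in each library and deposited a list per library with a position and a score per region. Per the submitters' processing notes the build is TAIR10. No source used here names the aligner, the peak caller, the read filters or the definition of the score, and without read counts depth is unknown, so no interval from reads is given. Scores served to rank regions within a library. Per the labels' protocols nuclei were sorted for every sample, so how the crude nuclei were made is unclear. The other 4 samples (2 of genomic DNA, 1 of maize and 1 further seedling sample) were not analysed here.

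Lists were merged over the 5 chromosomes in Python 3.11.15 (numpy 2.4.6, pandas 2.3.3, scipy 1.17.1, matplotlib 3.10.9). Genes came from RefSeq, assembly TAIR10.1, joined by position, with no strand, exons or genome sequence, so neither sequences nor exons are given. In 14 of 14 window steps with at least 50 genes, regions of sorted seedling replicate 1 lay over gene ends at a higher rate than over positions 5000 bp away. Window and arm values were compared by exact sign-flip tests over libraries, adjusted over 8 measures. Covered bases per merged region were tested in R 4.3.3 by limma 3.58.1: a linear model over all 10 libraries, robust empirical Bayes moderation with a mean trend, and Benjamini-Hochberg adjustment over all regions. The code for merging, coverage, sign-flip and permutation tests, the density ratio and the limma fit was tested on simulated data or known answers. The code for the other measures had no such test.

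Members and lists were chosen with earlier results of these data known. Named were the 3 top-scoring members per window in all libraries, the 5 farthest from genes in at least 8 libraries, the 5 widest, up to 10 called members per direction and contrast, members at list genes and those from 3.2 to 3.5 Mb of chromosome 2. List genes were matched by locus tag. All 10 lists differ in their number of regions.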

Additional observations from a re-analysis of the deposited data

Results flagged for a closer look

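The density of regions per protein-coding gene, windows against arms, had log2 ratios above 0 in both sorted seedling libraries, with a mean of 0.031, and below 0 in both crude libraries, with a mean of -0.26. In sorted seedling replicate 1 the values were 1.002 and 1.0001 regions per gene, which is close to no difference. An exact permutation test of the ratio between these groups gave p = 0.333, the smallest that 2 against 2 allows. In the other 3 groups the replicates disagreed in sign.

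Signal was also present in regions that the member rule left out. Inside the windows 155 merged regions were centred on annotated pseudogenes, with 20.6 per Mb of pseudogene sequence against 65.4 on the arms. Of these, 37 were called in all 10 libraries and 65 in 1, of which 57 were in H2AX-GFP replicate 2 alone. That library called 141 of the 155 and the others 57 to 70.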

How the results depend on the processing

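The lower density per Mb kept its direction and its side of 0.05 under all 21 alternatives run, as did the share near gene ends and the median width under theirs. Regions per gene did not pass 0.05 under any of 13, and the mean log2 ratio of 0.01 became -0.020 when each library kept equally many regions, -0.13 with windows 0.5 Mb shorter at both ends, and -0.030 to 0.056 with a library left out. The lower share of covered gene ends was -4.13 percentage points (exact p = 0.0801) among the better-scoring 50% of regions. Requiring a library to cover 50% of a region, 2.49% of members were called in all libraries and 45.1% in 1. These shares leave out members that no library covered to 50%. With equally many regions per library 26.8% were in 1. With at least 1 base required and a library left out, 31.1% to 37.2% were in all libraries and 19.5% to 30.8% in 1. The root density ratio minus that of the other libraries ran from -0.0215 to 0.0516 with a library left out, below 0 without root replicate 2.

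With limma, the members called in root against sorted seedlings numbered 3, and 15 after quantile normalization, 45 on log2(bases + 100), 0 on the covered share of the region, 0 with only the 4 libraries of the contrast, and 0 to 10 with a library left out. With the replicate number as a block (replicate block) they numbered 0. Against the 4 seedling groups the 30 (16 higher, 14 lower) became 29 with the replicate block (11 and 18), where 5 of the 20 named members were no longer called by limma (adjusted p = 0.063 at GORK, 0.051 at NPQ4, 0.067 at AT1G34040, 0.061 at AT1G44030 and 0.058 at AT4G08960). Deviations of same-numbered libraries correlated between -0.27 and 0.57, over 0.1 in 4 of 10 pairs of groups. This does not settle whether the numbers pair the libraries. The 30 became 70 after quantile normalization, 50 after division by covered length, 63 on log2(bases + 100), 8 on the covered share, and 0 to 85 with a library left out. The crude comparison gave 1 member on log2(bases + 100), and H2AX-GFP 0 to 207 with a library left out. The log2 and covered-share settings, and leaving out libraries for the number of libraries per region, were chosen after seeing the data. The causes of these changes were not tested. The lists hold no read counts, so a region missing from a library may have been open and not detected.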

Other observations

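Members touched other annotation in proportions unlike those of the arms for some classes and alike for others. A protein-coding gene was touched by 56.1% of the 2168 members and 79.6% of the 26844 arm regions. A pseudogene was touched, off its centre, by 5.63% and 1.44%, a long non-coding RNA gene by 6.78% and 6.8%, and a transfer RNA gene by 0.323% (7 members) and 1.72%. All 7 members at transfer RNA genes were called in all 10 libraries, as were 427 of the 463 such arm regions. Among the 100 best-scoring regions of a library, 13 (crude replicate 1) to 51 (H2AX-GFP replicate 2) were window regions outside pseudogenes, which made up 5.07% to 8.31% of a list. These are values without a test, and the genomic DNA samples had no region list to compare them with.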
